A study of Mus musculus with 23 samples.

Results

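The lines described here are cultures of murine pancreatic ductal adenocarcinoma (PDAC) that express the epithelial adhesion gene Cdh1 and differ in their signal for Col3a1, the chain of type III collagen. Of 23 lines with 1 Affymetrix mouse expression array each, 17 had a Cdh1 signal of 8 or more on the log2 scale and were called epithelial. Among these, 4 lines with a Col3a1 signal above 7 were called collagen-rich (PPT-3107, PPT-5486, PPT-6051 and LN1-15272) and 13 lines with a signal below 5 were called collagen-poor. No epithelial line lay between both limits. The other 6 lines had Cdh1 below 8 and served as a comparison group.

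All lines were grown as low-passage cultures without any treatment. The study derived them from mice in which Cre, driven by Pdx1 or Ptf1a, acts in the pancreas. Of the collagen-rich lines, PPT-3107 and PPT-5486 are listed with Ptf1a-Cre and PPT-6051 with Pdx1-Cre, each with Trp53 R172H, and the genotype of LN1-15272 was not listed. Of the collagen-poor lines, 9 had no listed genotype, and of the other 4, 2 carried Trp53 R172H (PPT-5193 with Ptf1a-Cre and B-6051 with Pdx1-Cre) and 2 did not (PPT-5671 and PPT-5748, Ptf1a-Cre). Of the 6 lines with low Cdh1, 5 are listed with Ptf1a-Cre and 1 with Pdx1-Cre, and ASC-5193 carried Trp53 R172H. The prefix PPT, taken as primary tumour, stood before 3 of the 4 collagen-rich names and 5 of the 13 collagen-poor names. The age of the mice was not given in the sources used here. In the study's grouping by the dual PI3K/mTOR inhibitor Bez235, with its cutoff at 10 nmol/L, all 4 collagen-rich lines and 6 of the 13 collagen-poor lines lay below it.

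Names that share a number were taken as lines of 1 mouse. The collagen-rich lines came from 4 mice and the collagen-poor lines from 7, with 9 mice in all, since the mouse of PPT-6051 and B-6051 and the mouse of LN1-15272, PPT-15272, PUL-15272 and B-152727 gave lines to both groups. Each line is 1 culture measured once, so the spread below is that between lines.

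Fibrillar collagens form the load-bearing fibres of the extracellular matrix. Type I collagen is built from the chains Col1a1 and Col1a2, type III from Col3a1 alone, and type V, which includes Col5a2, sets fibre diameter. In pancreatic tumours most of this matrix is made by fibroblasts and stellate cells, and carcinoma cells that pass through an epithelial-mesenchymal transition (EMT) can also switch on matrix genes while Cdh1 falls, under transcription factors of the Snai, Zeb and Twist families.

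The groups were chosen by the Cdh1 and Col3a1 signals of these arrays, which are given as a description with no test. The Col3a1 signal was 13.01 in PPT-5486, 7.72 in LN1-15272, 7.40 in PPT-3107 and 7.23 in PPT-6051. In the collagen-poor lines it ran from 2.10 in B-5123 over a median of 2.64 to 4.68 in HEP-5123, so PPT-6051 was the member just inside the limit and HEP-5123 the line just outside it. A second Col3a1 probe set read 9.66 in PPT-5486 and between 2.26 and 2.77 in the other collagen-rich lines, against at most 2.16 in the collagen-poor lines. Thus only PPT-5486 reached the Col3a1 levels of the lines with low Cdh1, which lay between 10.40 and 12.80. Cdh1 was 11.81 in PPT-3107, 11.26 in PPT-6051, 11.12 in LN1-15272 and 10.80 in PPT-5486, within the collagen-poor range of 10.23 to 11.72 except for PPT-3107, and far above the 2.22 to 6.48 of the lines with low Cdh1.

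**Figure D1:**
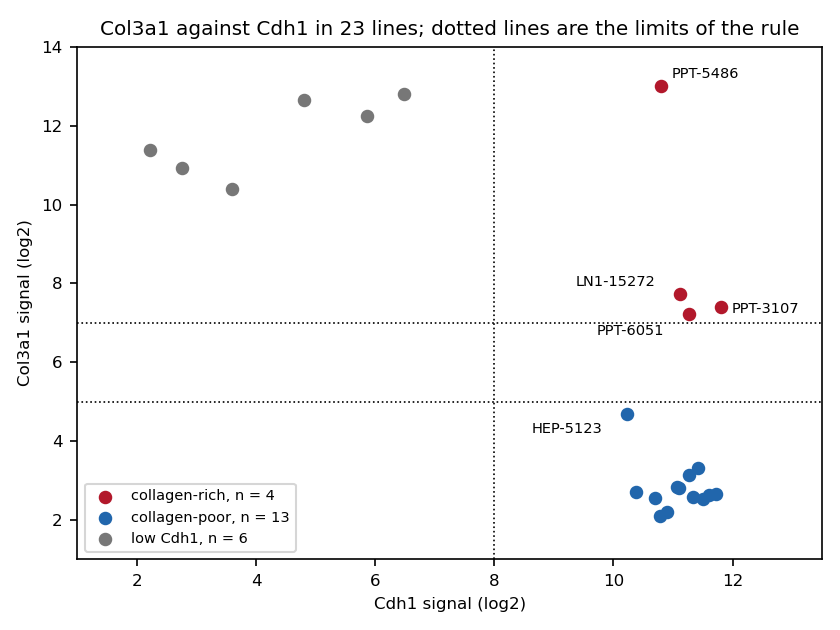
Col3a1 signal (vertical, log2) against Cdh1 signal (horizontal, log2), 1 point per line, for 4 collagen-rich, 13 collagen-poor and 6 lines with low Cdh1; dotted lines mark the limits of the rule. PPT-5486 stands at 13.01, level with the lines of low Cdh1, while the other 3 collagen-rich lines lie between 7.23 and 7.72.

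The second question was which other genes went with Col3a1. Because the groups were set by a gene of the same arrays, a gene whose signal follows Col3a1 has to differ between them, and the tests below measure the size of that difference against the spread between lines. For Col3a1 itself and for Col1a2 and Serpinf1, whose signals followed it most closely among the genes with a RefSeq start site of build GRCm38.p6 given, the 250 bases upstream of the start are shown. Capitals mark CCAAT on either strand (written CCAAT or ATTGG, the box bound by the factor NF-Y), CACCTG on either strand (CACCTG or CAGGTG, the E-box bound by Snai and Zeb proteins) and TATAA on either strand (TATAA or TTATA).
Col3a1, chr1:45311288-45311537, plus strand: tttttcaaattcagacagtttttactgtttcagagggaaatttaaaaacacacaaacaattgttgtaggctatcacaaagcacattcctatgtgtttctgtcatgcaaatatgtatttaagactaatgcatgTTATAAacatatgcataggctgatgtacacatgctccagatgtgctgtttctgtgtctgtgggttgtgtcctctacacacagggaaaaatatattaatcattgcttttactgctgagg
Col1a2, chr6:4505368-4505617, plus strand: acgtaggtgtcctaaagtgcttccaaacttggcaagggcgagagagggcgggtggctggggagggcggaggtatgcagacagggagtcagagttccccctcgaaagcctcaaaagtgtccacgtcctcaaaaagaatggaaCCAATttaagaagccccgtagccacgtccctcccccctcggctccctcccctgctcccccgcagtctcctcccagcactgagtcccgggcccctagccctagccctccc
Serpinf1, chr11:75422624-75422873, minus strand: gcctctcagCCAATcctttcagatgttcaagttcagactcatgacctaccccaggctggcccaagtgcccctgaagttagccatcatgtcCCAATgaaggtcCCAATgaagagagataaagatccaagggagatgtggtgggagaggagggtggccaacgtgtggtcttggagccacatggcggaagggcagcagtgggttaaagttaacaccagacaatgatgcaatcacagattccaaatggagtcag
The Serpinf1 window held 3 CCAAT boxes, the Col1a2 window 1, and the windows of Col3a1, Bgn and Postn (the latter 2 not shown) 0, and a box was found in 33.8% of the 32851 mouse windows of this length. None of these 5 windows held CACCTG, which was found in 17.2% of all windows. The Col3a1 window held the overlapping pair TTATAA, and 22.8% of all windows held TATAA on either strand. Of 11 genes looked up, 5 had a window.

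Of 45034 probe sets tested with limma, 4 had a higher signal in the collagen-rich lines at an adjusted p under 0.05 (0.00888%), and they stand for Serpinf1, Col5a2 and Col1a2. None had a lower signal (0.0%). At an unadjusted p under 0.05, 1794 probe sets were higher (3.98%) and 1300 lower (2.89%). The study used limma for its arrays and names a two-tailed Student's t-test in its general statistics. That test, here the methods' t-test, called 0 in either direction after Benjamini-Hochberg adjustment, with 1755 and 1313 at the unadjusted threshold. All 4 collagen-rich lines lay above every collagen-poor line for 27 probe sets (0.06%) and below every one for 29 (0.0644%). For the 3 lines other than PPT-5486 the counts were 83 (0.184%) and 75 (0.167%).

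Serpinf1 encodes PEDF, a secreted serpin that binds collagen I and inhibits angiogenesis. Its signal was 11.20 in PPT-5486, 7.49 in LN1-15272, 7.46 in PPT-3107 and 5.20 in PPT-6051, and 2.43, 3.10 and 4.04 as lowest, median and highest of the collagen-poor lines. The groups did not overlap, and the difference was 4.76 ± 0.63 (SE) on the log2 scale, or 27.1-fold (limma, adjusted p = 0.0189). A second probe set of the gene also kept the groups apart, with a difference of 2.42 that did not pass (adjusted p = 0.191).

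Col5a2, a chain of type V collagen, read 12.02 in PPT-5486, 8.32 in LN1-15272, 7.46 in PPT-3107 and 6.04 in PPT-6051. The collagen-poor lines ran from 2.36 over 3.07 to 5.32, again without overlap. The difference was 5.18 ± 0.72 (limma, adjusted p = 0.0189). A second probe set of the gene differed by 2.11 and did not pass. It read 8.31 in PPT-5486 and at most 3.36 in any other epithelial line.

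Col1a2, a chain of type I collagen, read 13.15 in PPT-5486, 8.98 in LN1-15272, 8.63 in PPT-3107 and 6.73 in PPT-6051, against 3.44, 4.06 and 6.43 as lowest, median and highest of the collagen-poor lines. The groups came nearest to each other in PPT-6051 and HEP-5123, without overlap. The difference was 5.21 ± 0.73 and for a second probe set 5.39 ± 0.77 (limma, adjusted p = 0.0189 for both), while the remaining probe set of the gene differed by 0.46.

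Col1a1, the partner of Col1a2 in type I collagen, came next. It read 10.73 in PPT-5486, 7.03 in PPT-3107, 7.01 in LN1-15272 and 5.10 in PPT-6051, and 3.17 to 4.57 in the collagen-poor lines with a median of 3.66. The groups did not overlap, but the difference of 3.71 ± 0.58 did not pass (limma, adjusted p = 0.0546).

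Bgn encodes biglycan, a small proteoglycan that binds collagen fibres. It read 12.29 in PPT-5486, 8.79 in LN1-15272, 7.34 in PPT-3107 and 6.59 in PPT-6051, and 3.26, 4.09 and 6.69 as lowest, median and highest of the collagen-poor lines. Here the groups touched, since HEP-5123 was above PPT-6051, and the difference of 4.43 ± 0.73 did not pass (limma, adjusted p = 0.0881).

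HEP-5123, the collagen-poor line with the highest Col3a1, was also the highest collagen-poor line for Col1a1, Col1a2, Col5a2, Serpinf1 and Bgn, and for Lox it shared the highest value with PPT-15272. B-5123, from the same mouse, read 2.10 for Col3a1, 4.06 for Col1a2 and 3.53 for Bgn. HEP-5123 also had the highest collagen-poor signal for the myeloid genes Lyz2 (8.06, against a median of 4.25) and Fcer1g (5.31, against 3.87). The myeloid genes Cd14 (9.50, against 9.86) and Cd68 (4.31, against 5.23) were instead below their collagen-poor medians there, and the pan-leukocyte gene Ptprc read 2.16. The part of these genes in the collagen signals was not tested.

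The number of calls depended on which single line of this small group was left out. Without PPT-5486, 7 probe sets passed, the 4 named above, the other of Serpinf1 and both of Col1a1. The differences were then 3.64 for Serpinf1, 3.99 for Col5a2, 3.95 for Col1a2 and 2.63 for Col1a1 (limma, adjusted p = 0.00213, 0.00668, 0.00404 and 0.00308). Over the 31 alternatives the adjusted p ran from 0.000539 to 1 for Serpinf1, from 0.00169 to 1 for Col5a2 and from 0.00129 to 1 for Col1a2 and for Col1a1, and each difference stayed positive. Without PPT-3107 no probe set passed. Without LN1-15272 there were 9 and without PPT-6051 there were 14, and both of these fits kept the 4 calls.

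Among the 10 genes with the smallest p for a higher signal, the 5 after these carried no call. Tagln, an actin-binding protein of smooth muscle, read 10.62 in PPT-5486, 9.28 in LN1-15272, 6.69 in PPT-3107 and 5.77 in PPT-6051 against a collagen-poor range of 4.23 to 5.87. Mmp2, the gelatinase that cleaves denatured collagen, read 7.59, 5.53, 4.79 and 3.65 in the same order against 2.98 to 3.66. For both genes PPT-6051 was the line inside the collagen-poor range, and the differences were 3.26 ± 0.57 and 2.12 ± 0.41 (limma, adjusted p = 0.146 and 0.195). Ptgis, the prostacyclin synthase, differed by 1.42, Prkg1, a cGMP-dependent kinase, by 0.73 and Srp19, a subunit of the signal recognition particle, by 0.43 (limma, adjusted p = 0.191, 0.191 and 0.187). The 10 genes with the smallest p for a lower signal were BC002059, Npepps, Pfpl, Wfdc12, Kdm5c, Nagk, Hrh1, Phxr4, Ttc7 and Slc1a1. Their probe sets were dim, with no epithelial line above 4.70, and none passed.

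**Figure D2:**
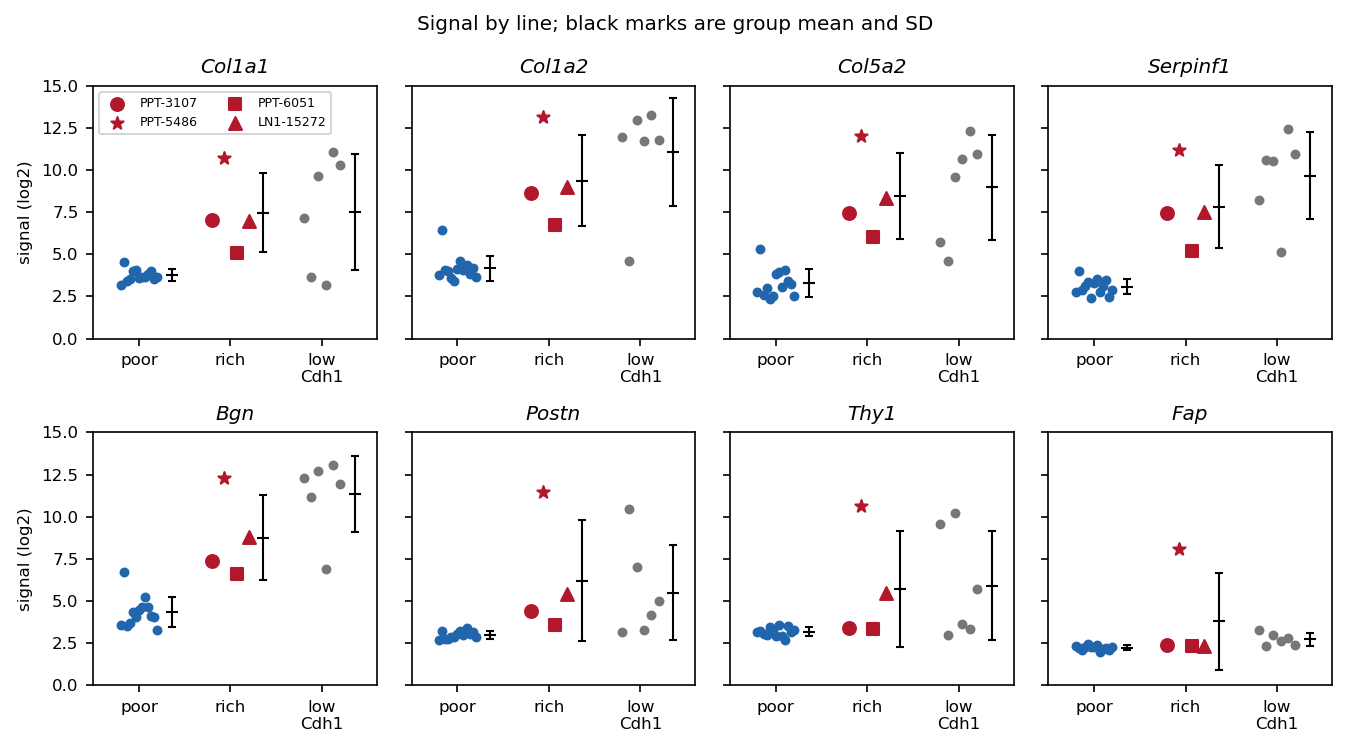
Signal (log2) of 8 genes in collagen-poor (13 points), collagen-rich (4 symbols, 1 per line) and low-Cdh1 lines (6 points), with group means and SD in black. Col1a1, Col1a2, Col5a2 and Serpinf1 separate all 4 collagen-rich lines from the collagen-poor lines, whereas Fap reads 8.10 in PPT-5486 and at most 2.37 in the other 3.

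By likeness to Col3a1 over the 17 epithelial lines (Pearson's r of log2 signals, as a description), the 10 nearest genes were Col1a2 (0.985), Serpinf1 (0.975), Col5a2 (0.973), Col1a1 (0.972), Bgn (0.96), Mmp2 (0.929), Lox (0.926), Tagln (0.912), Postn (0.906) and Ptgis (0.897). The points share mice, and PPT-5486 lies far from the others. Over the 16 lines without it the first 5 genes kept values between 0.906 and 0.963, and the other 5 between 0.748 and 0.864.

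The levels in the 3 weaker lines were small fractions of those in PPT-5486. On the linear scale PPT-6051 had 1.82% of the Col3a1 signal of PPT-5486, 2.02% for Col1a1, 1.17% for Col1a2, 1.58% for Col5a2, 1.56% for Serpinf1 and 1.92% for Bgn. The Col3a1 shares are those of the probe set in the rule. By the second Col3a1 probe set the log2 signal was 2.26 in PPT-6051, against 9.66 in PPT-5486 and a collagen-poor median of 1.78. Other genes had other shares in PPT-6051, with 3.47% for Tagln, 0.739% for Cdh11, 0.613% for Thy1 and 0.433% for Postn. The collagen-poor medians of these genes stood at 1.73%, 0.342%, 0.552% and 0.28%, which for Thy1 was near the share in PPT-6051. For the first 6 genes the shares in PPT-3107 ran from 2.05% for Col3a1 to 7.69% for Col1a1, and in LN1-15272 from 2.56% for Col3a1 to 8.84% for Bgn, while Tagln stood at 39.5% in LN1-15272. The median of the collagen-poor lines for the first 6 genes was between 0.0756% (Col3a1) and 0.744% (Col1a1). The arrays measure bulk RNA, in which a few cells with a high level and all cells with a low level cannot be told apart.

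PPT-5486 carried a much broader matrix and mesenchymal pattern. It lay more than 2 log2 units above all 16 other epithelial lines for 178 probe sets, against 6 for PPT-3107, 3 for PPT-6051 and 1 for LN1-15272, and between 0 and 67 for the collagen-poor lines. No probe set lay as far below the others in any collagen-rich line, and between 0 and 36 did so in the collagen-poor lines. At 79 of the 178 PPT-5486 was also above every line with low Cdh1, and at 95 it was within their range.

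The genes farthest above the rest in PPT-5486 included the matrix and fibroblast genes that follow, chosen after their values were seen. Postn (periostin) read 11.44, against 5.40 in LN1-15272 as the next line. Ptn (pleiotrophin) read 8.04 against 2.13 by 1 probe set, while another of its probe sets read 4.41 to 5.13 in all epithelial lines. Col6a3, a chain of type VI collagen, read 10.11 against 4.30, and Thy1, a surface glycoprotein of fibroblasts, 10.65 against 5.45. Fap, the fibroblast activation protein, read 8.10 in PPT-5486 and at most 2.46 in any other epithelial line. The lines with low Cdh1 stayed between 2.31 and 3.29 for Fap, so its signal in PPT-5486 was not shared with them. Aspn (asporin), at 6.84 in PPT-5486, was at most 2.12 in the lines with low Cdh1.

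The other collagen-rich lines differed among themselves. Cdh11, a cadherin of mesenchymal cells, read 9.78 in PPT-5486 and 6.10 in LN1-15272, but 2.70 in PPT-6051 and 2.0 in PPT-3107, where the collagen-poor lines ran from 0.79 to 2.37. Pdgfrb, the receptor of pericytes and stellate cells, read 10.59, 6.46, 4.96 and 2.83 in the same order, with collagen-poor values up to 6.52 in B-152727. Lox, which cross-links collagen, read 10.24, 6.33, 4.31 and 4.58, and Thy1 in LN1-15272 was above its collagen-poor range of 2.68 to 3.58 while PPT-6051 and PPT-3107 were inside it. So LN1-15272 came second among the collagen-rich lines for Cdh11, Pdgfrb, Lox and Thy1. None of these differences between the groups passed (limma, adjusted p = 0.581 for Cdh11, 0.607 for Pdgfrb and 0.45 for Lox).

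Il6, an inflammatory cytokine, was chosen after its values were seen. It read 8.04 in PPT-5486 and 7.23 in LN1-15272, 2.80 in PPT-6051 and 1.99 in PPT-3107. No collagen-poor line exceeded 3.23 and no line with low Cdh1 exceeded 5.61.

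**Figure D3:**
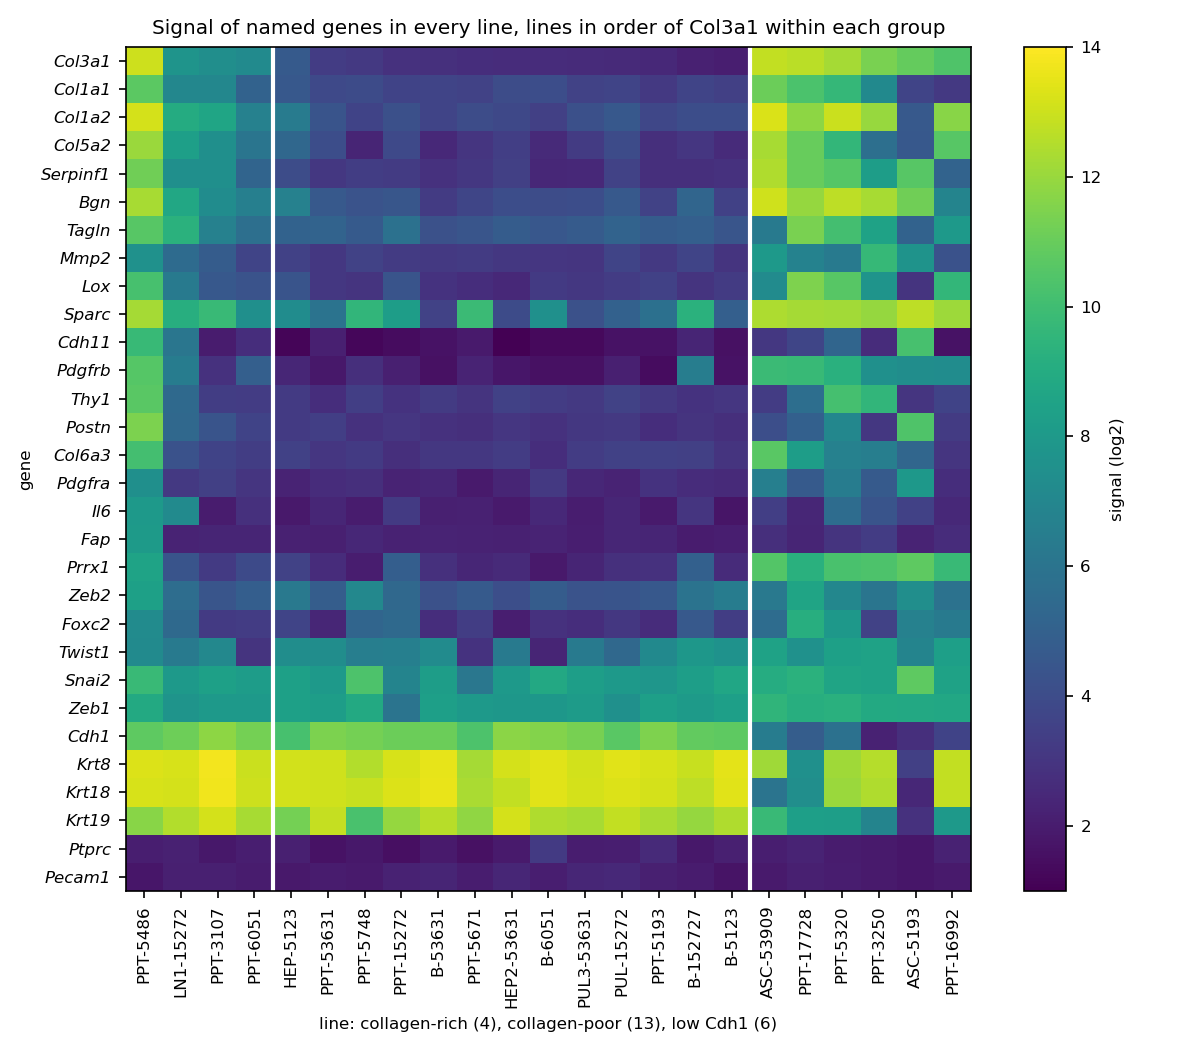
Signal (log2, colour) of 30 genes (rows) in all 23 lines (columns), with lines in order of Col3a1 within the collagen-rich, collagen-poor and low-Cdh1 groups. The first 6 rows are high in all 4 collagen-rich lines relative to most collagen-poor lines, rows from Cdh11 to Fap are, among the epithelial lines, highest in PPT-5486, and Krt8, Krt18 and Cdh1 are high in all 17 epithelial lines.

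Of the 10 measured fibrillar collagens, 9 were tested, and 2 passed (Col1a2 and Col5a2), both higher, with a median difference of 1.27 beside 0.02 over all probe sets. Without PPT-5486 the median was 0.38. The list was drawn up with Col3a1 results known, so its median is a description. The remaining members did not pass. Col11a1 read 7.46 in PPT-5486 and 3.18 or less in the other collagen-rich lines, and Col5a3 read 7.43 in PPT-5486, 4.31 in LN1-15272, 2.86 in PPT-6051 and 2.74 in PPT-3107. Col5a1 was 10.33 in PPT-5486 but 6.85 to 7.65 in the rest, within the collagen-poor range of 5.07 to 8.26. Col27a1 lay between 5.98 and 8.16 in the collagen-rich lines and between 5.59 and 8.89 in the collagen-poor lines, so its groups overlapped throughout. Col11a2 (at most 3.03) and Col24a1 (at most 1.76) were dim in all epithelial lines.

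The genes above every collagen-poor line were also counted for each collagen-rich line. Among the 10 fibrillar collagens the count was 7 in PPT-5486, 7 in LN1-15272, 5 in PPT-3107 and 4 in PPT-6051. Over all probe sets the share above every collagen-poor line was 10.1%, 5.61%, 11.5% and 5.14% in the same order. Among 20 other collagens, such as those of basement membranes and of type VI, it was 11, 1, 2 and 0, and none passed (4 at an unadjusted p under 0.05). Outside PPT-5486 these counts were near or below the shares over all probe sets. Among 24 matrix glycoproteins and proteoglycans it was 14, 5, 4 and 2, and none passed (9 at an unadjusted p under 0.05), with a median difference of 1.18. The fibrillar count of each line includes Col3a1, which the rule fixed. In LN1-15272 it also includes the dim Col11a1 (2.57) and Col11a2 (3.03), which lay just above the highest collagen-poor values of 2.49 and 2.96.

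Genes of collagen maturation, which hydroxylate, fold and cross-link the chains, had a positive difference in 20 of 20, with a median of 0.48, and 0 passed by limma or by the methods' t-test. At an unadjusted p under 0.05 there were 2, Lox and Sparc. Sparc, a collagen-binding glycoprotein, read 12.23 in PPT-5486, 9.79 in PPT-3107, 9.14 in LN1-15272 and 7.46 in PPT-6051, yet the collagen-poor lines reached 9.88. The lysyl hydroxylase Plod1 and the lysyl oxidase Loxl3 differed by 0.48 and 0.95. Without PPT-5486 the difference was positive in 14 of 20 and the median 0.14. Over all 45034 probe sets 24337 were positive with all 4 lines and 23760 without PPT-5486. Of the collagen receptors, Mrc2, which takes up collagen fragments, read 7.76 in PPT-5486 and 3.53 to 4.16 in the others, and Ddr2, a collagen-activated kinase, 7.56 against 5.71 to 6.26. The matrix protease Mmp23 instead stood out in PPT-3107, with 7.24 against 4.51 to 5.25 in the other collagen-rich lines, and Adamts5 and Adamts12 read 5.44 and 4.95 in PPT-5486 and at most 3.46 in the others. None of the 9 receptors and 17 proteases and inhibitors passed (2 and 5 at an unadjusted p under 0.05).

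**Figure D4:**
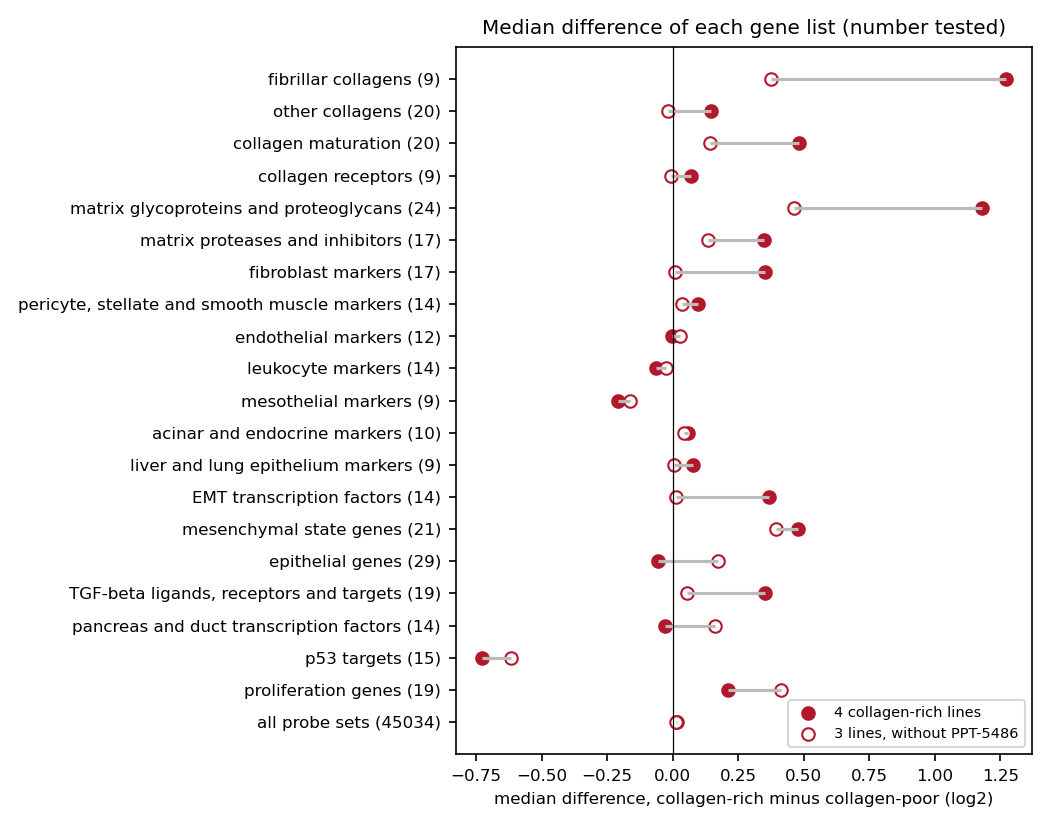
Median log2 difference (collagen-rich minus collagen-poor) for 20 gene lists and for all probe sets, with all 4 collagen-rich lines (filled) and without PPT-5486 (open); the number of genes tested is in parentheses. The medians of the fibrillar collagens (1.27) and of the matrix glycoproteins and proteoglycans (1.18) fall to 0.38 and 0.46 without PPT-5486, and that of the EMT transcription factors from 0.37 to 0.01.

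Fibroblast markers were examined because fibroblasts are the main source of these collagens in a tumour. Of 17 measured, 12 lay above every collagen-poor line in PPT-5486, 6 in LN1-15272, 3 in PPT-3107 and 1 in PPT-6051. The shares over all probe sets were 10.1%, 5.61%, 11.5% and 5.14% in the same order, so the count in PPT-6051 was near its share. The mean log2 signal of the list was 5.87 in PPT-5486 and between 3.40 and 3.69 in the other collagen-rich lines, against 3.06 to 3.59 in the collagen-poor lines and 3.76 to 5.64 in the lines with low Cdh1. Pdgfra, a receptor of fibroblasts, read 7.46 in PPT-5486 and 3.02 to 3.44 in the others, Pdpn 7.29 against 3.22 to 4.73, and Dpt 4.91 against at most 2.45. Lum (lumican), by contrast, was near the floor in all 4 collagen-rich lines, at 2.48 to 2.55, and between 2.36 and 9.34 in the lines with low Cdh1. Lum and Dpt were chosen after their values were seen. None of the 17 passed with the brightest probe set of each gene (7 higher and 1 lower at an unadjusted p under 0.05). Serpinf1 is a member of this list, and its other probe set is the one called above (limma, adjusted p = 0.0189). Without PPT-5486 the brightest probe set of Serpinf1 passed as well (limma, adjusted p = 0.00213). The part of fibroblast RNA in the collagen signals was not tested.

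Markers of other cell types were set beside these values. Of 14 pericyte, stellate and smooth muscle markers, PPT-5486 had 6 above every collagen-poor line, PPT-3107 3, LN1-15272 2 and PPT-6051 0. The shares over all probe sets were 10.1%, 11.5%, 5.61% and 5.14% in the same order. None of the 14 passed (4 at an unadjusted p under 0.05). Acta2, the smooth muscle actin, read 12.57 in PPT-5486 and 8.31 to 10.89 in the others, with collagen-poor values up to 11.11, and Cnn1 read 7.87 in PPT-5486. The endothelial list (12 genes) had a mean log2 signal of 2.96 to 3.13 in the collagen-rich and 2.89 to 3.35 in the collagen-poor lines, with Pecam1 at 2.16 or below in the collagen-rich lines. The leukocyte list (14 genes) lay at 3.80 to 4.03 and 3.79 to 4.36, with Ptprc at 2.19 or below in the collagen-rich lines. The mesothelial list (9 genes) lay at 3.30 to 3.72 and 3.20 to 4.47, the acinar and endocrine list (10 genes) at 3.69 to 4.06 and 3.38 to 4.04, and the liver and lung list (9 genes) at 3.39 to 3.85 and 3.29 to 4.54. No gene of these last 5 lists passed (limma, and 0 by the methods' t-test), and at an unadjusted p under 0.05 there was 1, the mesothelial Wt1, with 2.40 to 3.39 in the collagen-rich lines.

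Beside Cdh1, other epithelial markers were examined. Krt8 read 12.97 to 13.75 in the collagen-rich and 12.26 to 13.52 in the collagen-poor lines, Krt18 13.01 to 13.74 and 12.36 to 13.58, and Krt19 11.71 to 13.14 and 10.29 to 13.18. PPT-5486 was within the collagen-poor range for all 3 keratins. Krt8 and Krt18 did not set the epithelial lines apart, since lines with low Cdh1 reached 12.81 and 12.80, whereas Krt19 was at most 9.83 there. Krt18, Krt19, Epcam, Ptprc, Pecam1 and Vim were chosen after their values were seen. Epcam varied more, from 5.24 in PPT-3107 to 9.41 in LN1-15272, and the collagen-poor lines spanned 3.69 to 11.70, overlapping the lines with low Cdh1 (2.89 to 3.74). Of 29 epithelial genes tested, 0 passed in either direction with limma, 0 had an unadjusted p under 0.05 and 12 had a positive difference, with a median of -0.06; Spint2, a protease inhibitor, differed by -0.21 and St14, the protease matriptase, by -0.94. The 14 pancreas and duct transcription factors had a median of -0.03, and Sox9 read 6.24 to 8.13 in the collagen-rich lines.

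EMT transcription factors were compared because matrix genes and these factors are often high in the same cells. None of the 14 measured passed (limma), 2 had an unadjusted p under 0.05 (Prrx1 and Snai1), and the median difference was 0.37 with PPT-5486 and 0.01 without it. In PPT-5486, 9 of the 14 were above every collagen-poor line, against 1 in LN1-15272 and 0 in PPT-3107 and PPT-6051. The shares over all probe sets were 10.1%, 5.61%, 11.5% and 5.14% in the same order, so the count in LN1-15272 was near its share. Prrx1 read 8.55 in PPT-5486, 4.39 in LN1-15272, 3.9 in PPT-6051 and 3.23 in PPT-3107, with 1.91 to 4.98 in the collagen-poor lines, a difference of 2.07 ± 0.73 (limma, adjusted p = 0.67). Zeb2 was 8.40 in PPT-5486 and 4.44 to 5.65 in the others, Foxc2 7.27 against 3.23 to 5.42, Foxc1 6.29 against 2.27 to 4.78 and Snai1 4.81 against 2.94 to 3.26. For these 5 factors the collagen-rich lines other than PPT-5486 were within the collagen-poor range or, for Foxc1 in PPT-3107, below it.

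The factors of the Zeb, Twist and Slug type were expressed in both groups. Zeb1 read 8.92 in PPT-5486 and 7.72 to 8.05 in the others, with a collagen-poor range of 6.0 to 8.90. Snai2 (Slug) read 9.83 in PPT-5486 and 7.96 to 8.39 in the others, while the collagen-poor line PPT-5748 reached 10.36. Twist1 was 7.23 in PPT-5486, 7.05 in PPT-3107, 6.31 in LN1-15272 and 2.95 in PPT-6051, and Twist2 8.20, 5.79, 5.71 and 5.47 in the same order. The collagen-poor lines spanned 2.37 to 7.87 for Twist1 and 3.09 to 8.70 for Twist2. Tcf4 was 9.16 in PPT-5486 and 7.34 to 7.40 in the others, Sox4 12.30 against 11.49 to 11.57 and Tcf3 8.93 against 7.88 to 8.70, whereas Snai3 (4.82 in PPT-5486) was highest in LN1-15272 at 5.85. Gsc was at most 1.87 in the collagen-rich and 2.21 in the collagen-poor lines.

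Of the mesenchymal state genes, 19 of 21 had a positive difference, with a median of 0.48 and of 0.39 without PPT-5486, and none passed (4 at an unadjusted p under 0.05). Vim read 12.60 to 13.28 in the collagen-rich and 11.34 to 13.14 in the collagen-poor lines, so vimentin was high in both groups. Lgals1 differed by 0.35. Among genes of TGF-beta signalling, a known inducer of collagen genes, Tgfb2 read 7.91 in PPT-5486 and 3.86 to 4.97 in the others, and the inhibitory receptor Bambi and the target Tgfbi differed by 0.72 and 0.46. Id1, a target of BMP signalling, read 9.24 in PPT-5486 and 10.68 to 11.46 in the other collagen-rich lines, with a collagen-poor range of 9.10 to 11.11. None of the 19 genes passed, and 1 had an unadjusted p under 0.05.

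Of 15 genes that p53 switches on, 14 had a negative difference, with a median of -0.73, and none passed (4 at an unadjusted p under 0.05, Cdkn1a, Ccng1, Zmat3 and Phlda3). Cdkn1a, the p21 cell-cycle inhibitor, read 6.71 in PPT-3107, 6.98 in PPT-6051 and 7.45 in PPT-5486, but 10.70 in LN1-15272, and its collagen-poor median was 10.20. The 2 collagen-poor lines with a listed Trp53 R172H allele read 6.20 (PPT-5193) and 7.38 (B-6051), and within the lines with that allele the difference was 0.26 instead of -1.85. ASC-5193, a line with low Cdh1 and the same listed allele, read 9.68. For Col3a1, PPT-5193 and B-6051 read 2.52 and 2.63. Proliferation genes had a median of 0.21, none passed, and 1, the mitotic kinase Aurka (0.70), had an unadjusted p under 0.05.

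Efemp1, the fibulin at the centre of the study, was chosen after its values were seen, and read 10.62 in PPT-6051, 8.89 in PPT-3107, 8.79 in LN1-15272 and 8.47 in PPT-5486. The collagen-poor lines spanned 1.72 to 11.03 with a median of 9.84. The difference of 1.39 ± 1.60 did not pass (limma, adjusted p = 0.896). With the side of the Bez235 cutoff as a covariate 0 probe sets passed for the collagen groups, as with the name prefix as a covariate.

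A pair of mice had lines on both sides of the Col3a1 limits, so that lines of the same mouse can be set beside each other. These are single arrays, given as values with no test. PPT-6051 exceeded B-6051 by 3.29 for Col1a2 (6.73 against 3.44), by 3.51 for Col5a2, by 2.77 for Serpinf1, by 2.56 for Bgn and by 1.05 for Col1a1. In the other mouse, LN1-15272 exceeded the highest of PPT-15272, PUL-15272 and B-152727 by 4.38 for Col1a2, by 4.37 for Col5a2, by 3.95 for Serpinf1, by 3.56 for Bgn and by 3.35 for Col1a1. The same 5 genes were higher in the collagen-rich line of both mice. They had been named from a comparison that holds these same arrays, and Col3a1 had split the lines. This is therefore a description and no separate support. Krt8 read 12.97 in PPT-6051 against 13.40 in B-6051, and 13.19 in LN1-15272 against 12.90 to 13.40.

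Across the array PPT-6051 was more than 2 above B-6051 for 116 probe sets and more than 2 below for 149, and LN1-15272 was more than 2 above all 3 lines of its mouse for 27 and below for 0. In both mice together 6 tested probe sets were more than 2 above, all of Serpinf1, Bgn, Col5a2 or Col1a2, and 17 were more than 1 above. Beside genes named already, the 17 included Creb3l1, a membrane-bound transcription factor known to act on type I collagen genes in bone. It read 4.76 in PPT-6051 against 3.39 in B-6051 and 6.25 in LN1-15272 against at most 4.74, and 7.50 in PPT-5486, but 4.37 in PPT-3107, while the collagen-poor lines reached 5.81. Creb3l1 was chosen after its values were seen.

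With the mouse as a fixed block, so that only these 2 mice inform the difference, the values were 4.14 ± 0.57 for Col1a2, 4.22 ± 0.69 for Col5a2 and 3.69 ± 0.43 for Serpinf1, and 0 probe sets passed in either direction (limma; adjusted p = 0.294, 0.649 and 0.172, within the ranges given above, with 880 higher and 685 lower at an unadjusted p under 0.05). With 1 mean per mouse and group 0 passed as well.

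**Figure D5:**
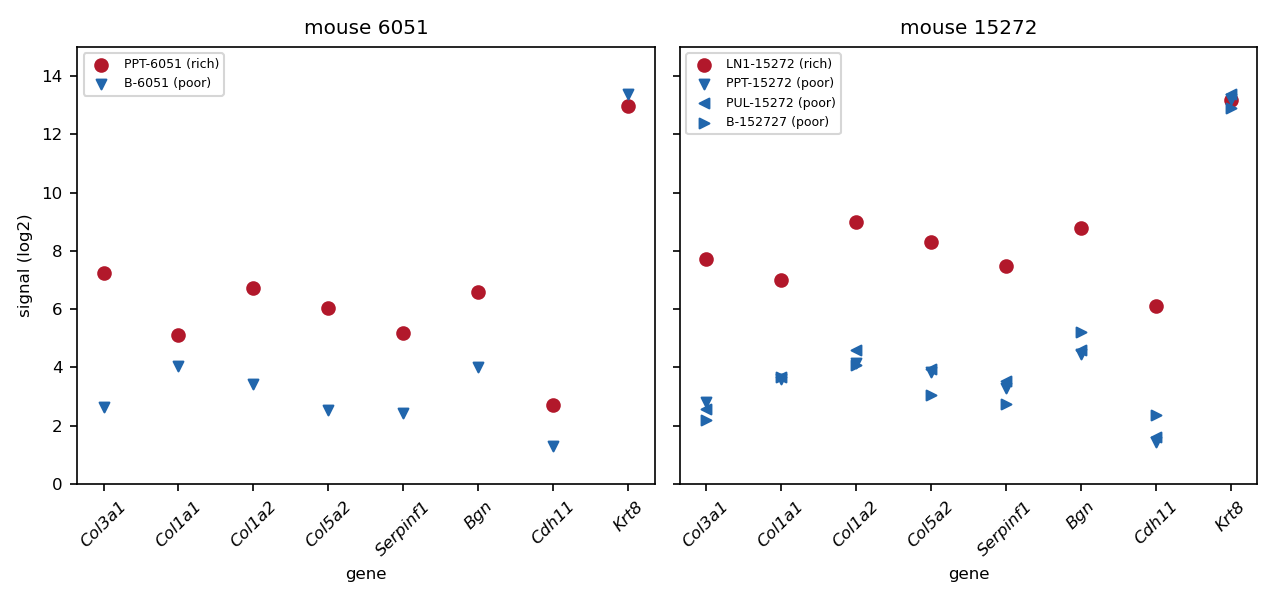
Signal (log2) of 8 genes in the lines of 1 mouse in each panel (PPT-6051 and B-6051 on the left, LN1-15272 and 3 others on the right), with the collagen-rich line as a circle and collagen-poor lines of the same mouse as triangles. Col3a1, Col1a2, Col5a2, Serpinf1 and Bgn lie higher in the collagen-rich line of both mice, while Krt8 lies near 13 in all lines.

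Compared with the 6 lines of low Cdh1, the collagen-rich lines had 976 probe sets with a higher (2.17%) and 634 with a lower signal (1.41%) in a fit over all 23 lines, and 9.08% and 7.17% at an unadjusted p under 0.05. In the same fit the lines with low Cdh1 against the collagen-poor lines had 6.87% higher and 6.07% lower. The counts against the lines with low Cdh1 fell to 383 and 203 without PPT-3107, to 546 and 274 without PPT-6051 and to 602 and 334 without LN1-15272, and were 1041 and 927 without PPT-5486. None of the 9 fibrillar collagens tested passed against the lines with low Cdh1 (limma, median difference -0.13), which does not show equal levels, since both groups spread widely. Col1a1 spanned 5.10 to 10.73 in the collagen-rich and 3.15 to 11.07 in the low-Cdh1 lines. Epithelial genes were higher for 11 of 29, with a median of 2.55, as the rule on Cdh1 would select, and Spint2 was higher by 4.23 ± 0.60 (limma, adjusted p = 0.00014). Of the pancreas and duct transcription factors 7 of 14 were higher, among them Hes1 and Foxa3.

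Several EMT transcription factors differed between these groups. Cdh1 on these same arrays had set the groups apart, so a gene whose signal goes with that of Cdh1 has to differ between them. Of 14, 3 were lower and 1 higher in the collagen-rich lines, with a median of -0.97. Prrx1 was lower in all 4 collagen-rich lines, PPT-5486 included, than in any line with low Cdh1 (9.23 to 10.79), by 5.16 ± 0.75 (limma, adjusted p = 0.0002). Tcf4 likewise did not overlap, with a difference of -2.15 ± 0.36 (limma, adjusted p = 0.000953). Foxc1 was also lower and Snai3 higher (limma, adjusted p = 0.0314 for both). Of the matrix glycoproteins 4 of 24 were lower, including the collagen-binding Dcn (decorin, -3.89 ± 0.70), and of the maturation genes Loxl3, a lysyl oxidase, was lower by 3.96 ± 0.55 (limma, adjusted p = 0.0019 and 0.000108). The receptors Ddr2 and Mrc2 and the TGF-beta target Tgfbi were lower too (limma, adjusted p = 0.00624, 0.0412 and 0.00415). Of the 14 EMT factors, PPT-5486 lay within the range of the lines with low Cdh1 for 10, above it for Snai1 and Sox4 and below it for Prrx1 and Tcf4. The mean log2 signal of that list was 7.61 in PPT-5486 and 7.18 to 7.75 in the lines with low Cdh1, and that of the mesenchymal state genes was 9.76 against 9.09 to 9.76.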

How the data were processed

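RNA of 23 murine PDAC lines was measured on 1 array each. The table the authors deposited holds log2 signals. VSN followed by log2 is named in their supplementary methods, but RMA in the processing notes of the submitters. Which of them made the signals could not be settled here, and no version is given. Both methods compress low signals, so differences of dim genes are understated. No further normalization was applied. Of 45101 probe sets, 64 controls were left out. Symbols came from the platform annotation (34945 probe sets with 1 symbol, 932 with several, 9160 with none). Array medians ran from 3.58 to 3.89, no pair of arrays was identical, and depth does not apply to arrays, so the number of lines sets the precision.

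The members and the gene lists were chosen with earlier results of these data known. Tests used limma (3.58.1, under R 4.3.3; lmFit, eBayes, two-sided, Benjamini-Hochberg, threshold 0.05) over the 17 epithelial lines, and over all 23 lines for the comparison with low Cdh1. The 3 probe sets of Col3a1 and Cdh1 were not tested and were left out of the adjustment. Of 335 entries in 20 gene lists, 317 were measured, each by its brightest probe set. Named were the genes with the smallest p (10 in each direction), all fibrillar collagens and EMT factors, up to 4 members of each other list and the 10 genes most like Col3a1; others are marked as chosen after their values were seen. The fits were tested on simulated data. Lines of 1 mouse deviated together (median correlation 0.417 over 15 pairs, and -0.0854 over 238 other pairs); the mouse number comes from the line names, and B-152727 was taken as mouse 15272. Genotypes and the side of the Bez235 cutoff are labels from the study's supplementary tables. A further part of the genotypes is not reported here. Alternatives changed the block, normalization, filter, test, covariates and lines. Figures were drawn with matplotlib 3.10.9.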

Additional observations from a re-analysis of the deposited data

Results flagged for a closer look

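Among the collagen-rich lines, PPT-5486 lay far from the other 3 for Fap (8.10), Tcf4 (9.16), Pdgfra (7.46), Col11a1 (7.46) and Col6a3 (10.11), each with a gap to the next line over the 95% limit of Dixon's test for 4 values. Among the lines with low Cdh1, ASC-5193 lay far below the others for both examined probe sets of Col1a2, which has 3 (4.63 and 2.72), and PPT-16992 for Bgn (6.88). In all, 30 probe sets were examined in each group, all of genes picked for this report and some, such as Fap, after their values were seen. A chance rate of 1 in 20 therefore does not apply to the counts. In the collagen-rich lines 5 were marked, all for PPT-5486, and in the lines with low Cdh1 3. The cause was not tested.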

How the results depend on the processing

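The count of 4 probe sets higher in the collagen-rich lines was 0 in the fit over all 23 lines, with the mouse as a replicate block (fixed), with 1 mean per mouse and group, by the methods' t-test, with the site or the Bez235 side as a covariate and when only lines listed with Trp53 R172H were kept. It was 12 without both mice that gave lines to both groups, where 1 probe set was also lower (0 otherwise), and 175 with Col3a1 as a continuous measure. Leaving out single lines gave 0 to 14 higher and 0 lower. The cause was not tested, but several of these fits have fewer lines or residual degrees of freedom. With the mouse as a random block, normalized again by quantiles, with trended and robust variances or with bright probe sets only it stayed at 4, and at 5 with centred arrays or with the 3 probe sets of Col3a1 and Cdh1 kept in the adjustment. The last of these and the list counts without PPT-5486 were chosen after seeing the data.

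Against the lines with low Cdh1, 277 instead of 634 were lower with only the 10 lines of both groups, and leaving out single lines gave 383 to 1043 higher and 203 to 927 lower, both lowest without PPT-3107. Cdkn1a turned from -1.85 to 0.26 when only lines listed with Trp53 R172H were kept. Standing for each gene by its most variable probe set changed 1 list call, from 0 to 1 among the fibroblast markers (Serpinf1). Signals near the floor of the array limit what can be said of dim genes.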
